A study of Mus musculus with 2 samples.

Results

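The cadherins, catenins and nectins that build the adherens junction were followed in prostaspheres with and without Sox9. The 10 genes were taken by name from the array: the cadherins Cdh1, Cdh2, Cdh3 and Cdh11, the catenins Ctnna1, Ctnnb1 and Ctnnd1, and the nectins Pvrl1, Pvrl2 and Pvrl3 (now called Nectin1, Nectin2 and Nectin3). All spots that carry these names and are not control spots were used, which gave 39 spots of 21 probes out of 41174 probes on the array. Of the 21 probes, 18 were bright enough to be tested, among 22731 tested probes in all.

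Prostaspheres are spheres grown in Matrigel from single prostate epithelial cells. According to the labels, the cells came from urogenital sinus (UGS) epithelium of C57/Bl6J background embryos at 16 dpc, whereas the study's methods describe spheres from adult prostate. Spheres were kept with DHT for 6 days and then given tamoxifen (TAM, 5 µM) or vehicle for 6 more days. In ER-Sox9flox/flox cells, TAM switches on a ubiquitously expressed Cre that removes floxed Sox9, so deletion is not limited to one cell type. On the first array, the genotype comparison, RNA of wild type spheres with TAM was set against RNA of ER-Sox9flox/flox spheres with TAM. On the second array, the treatment comparison, RNA of ER-Sox9flox/flox spheres with vehicle was set against RNA of ER-Sox9flox/flox spheres with TAM. The labels call both RNAs of the second array Sox9 null, so there the treatment tells them apart, and they also list Sox9flox/+ embryos among those harvested without saying whether these gave RNA. Each RNA was read once, in 1 channel of 1 array, and how many embryos or cultures gave it is not stated in the sources used here.

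Every ratio below is the log2 of Sox9-expressing RNA (Cy5) over Sox9-deleted RNA (Cy3), so a positive value means a higher level where Sox9 was present. Means are over the 2 arrays, given with the SD between them (n = 2), and p-values are from limma with Benjamini-Hochberg adjustment over all tested probes. Wild type and ER-Sox9flox/flox cells also differ in their line, and vehicle and TAM in exposure to the drug. The dyes were never swapped, so a probe's preference for Cy5 or Cy3 and a difference between the RNAs cannot be told apart. Brightness is given in scanner units after background correction and normalization, with an added offset of 50. Probes not well above background had a median brightness of 90.5 to 90.9 in the 4 RNAs, and 53.9% to 56.2% of all probes were well above background. The targeted gene was checked first. Mean ratios of the 3 Sox9 probes were 2.53 ± 0.23, 1.22 ± 0.068 and -1.11 ± 0.16, so 2 went with the labels and the third against them. The adjusted p (limma) of these Sox9 probes was 0.0591, 0.0824 and 0.0883.

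Adherens junctions hold neighboring epithelial cells together. Classical cadherins span the membrane and bind cadherins of the next cell in a calcium-dependent way, and inside the cell they bind β-catenin (Ctnnb1) and p120-catenin (Ctnnd1). α-Catenin (Ctnna1) joins β-catenin to actin filaments, and p120-catenin keeps cadherins at the membrane. Nectins are immunoglobulin-like adhesion molecules that bind across cells without calcium and reach actin through afadin (Mllt4). In the prostate, Cdh1 (E-cadherin) is the general epithelial cadherin, Cdh3 (P-cadherin) is typical of basal cells, and Cdh2 (N-cadherin) and Cdh11 (OB-cadherin) are best known from mesenchymal, neural and bone-forming cells.

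Array probes are 60 bases long, and what each one can report depends on the stretch of transcript it pairs with. One probe of each family is shown, chosen because its letters can be read as protein-coding. Positions are on the mm9 build, as given in the array files, and all of these probes match the minus strand. In the Cdh11 probe, at chr8:105191906-105191965, capitals mark the codons of the calcium-binding signature that closes a cadherin repeat. In the Ctnnd1 probe, capitals mark the codons of its only open reading frame, and its 60 bases span 1491 bases of the genome, at chr2:84443888-84445378, so it crosses at least 1 splice junction. In the Pvrl3 probe, at chr16:46454777-46454836, capitals mark the codons of the tyrosine and cysteine signature of immunoglobulin folds.
Cdh11 probe 1: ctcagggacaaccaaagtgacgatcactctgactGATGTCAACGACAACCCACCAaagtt
Ctnnd1 probe 2: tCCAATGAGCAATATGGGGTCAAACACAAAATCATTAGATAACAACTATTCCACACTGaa
Pvrl3 probe 3: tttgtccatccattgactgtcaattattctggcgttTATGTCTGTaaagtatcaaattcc

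Differences of the adherens junction genes between Sox9-expressing and Sox9-deleted spheres were small, and by the brightest probe no mean exceeded 1.46-fold. Read from the brightest tested probe of each gene, 4 of the 10 genes had positive ratios on both arrays (Cdh2, Cdh3, Ctnnd1 and Pvrl1), 4 were lower on both (Cdh1, Ctnnb1, Pvrl2 and Pvrl3) and 2 pointed in opposite directions (Cdh11 and Ctnna1). The other tested Ctnnb1 probes were positive on both arrays, so no direction is given for that gene below. Among all 15131 tested genes, 33.8% were higher on both arrays, 33.8% lower on both and 32.4% opposite. None of the 10 was at least 2-fold different on both arrays, where 0.535% of all genes were. By limma, 0 of the 10 genes had an adjusted p under 0.05 (0.0132% of all genes did, and 0.0088% of all probes), and 4 of the 10 had an unadjusted p under 0.05, against 19.5% of all genes. These 4 were Cdh1, Cdh3, Pvrl1 and Pvrl2. The methods' t-test called 0 of the 22731 probes after adjustment. The median of the mean log2 ratio over the 10 genes was 0.061, beside 0.0031 over all genes.

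**Figure D1:**
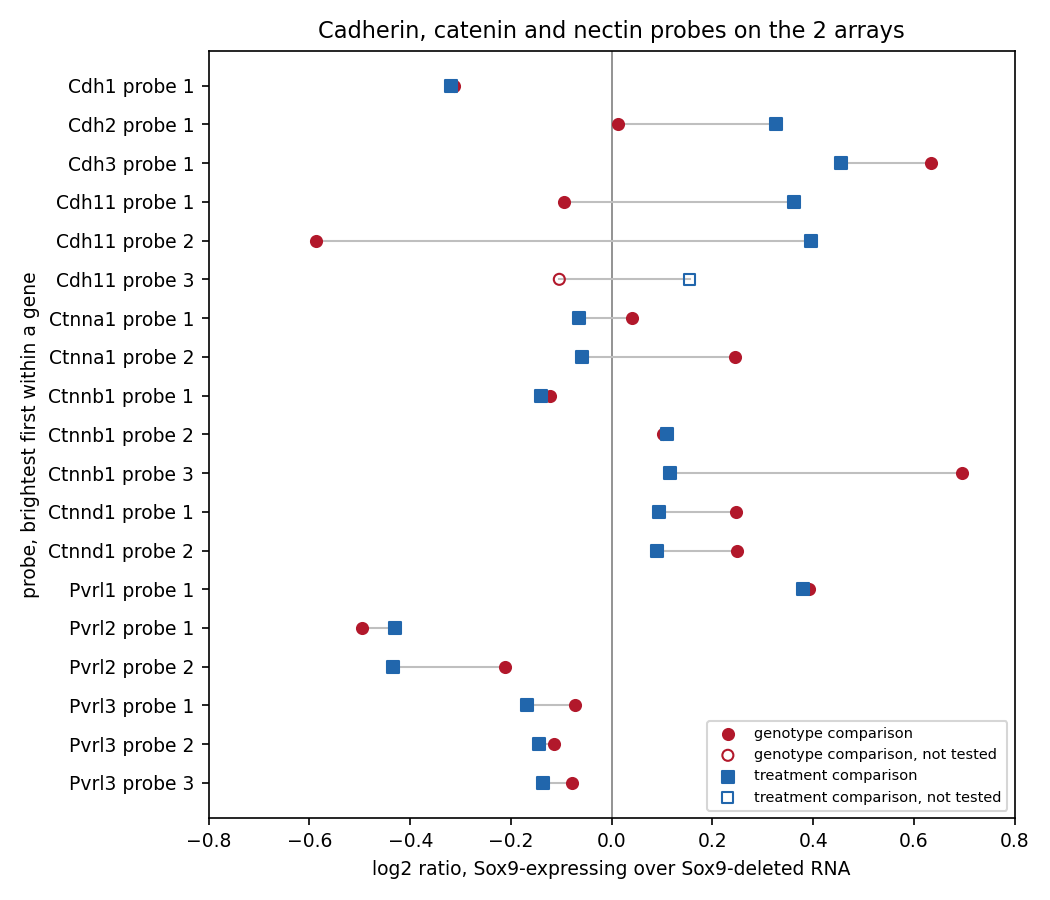
Log2 ratio of Sox9-expressing over Sox9-deleted RNA (x axis) for the 19 probes of the 10 genes that were well above background in at least 1 RNA (y axis). Circles are the genotype comparison and squares the treatment comparison, open symbols mark the Cdh11 probe that was not tested, and grey lines join the values of a probe. All points lie between -0.59 and 0.69, Cdh3 and Pvrl1 lie right of 0 on both arrays, and Cdh1 and Pvrl2 lie left of it.

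Among the cadherins, the epithelial Cdh1 and the basal Cdh3 pointed in opposite directions on both arrays. The brightness of Cdh1 was 3982 in wild type with TAM and 4948 in ER-Sox9flox/flox with TAM, and 3494 with vehicle and 4362 with TAM in the treatment comparison. Both Sox9-deleted RNAs were brighter than both Sox9-expressing RNAs. The log2 ratios were -0.31 and -0.32, a mean of -0.32 ± 0.0047, which is 1.25-fold higher in Sox9-deleted RNA (limma 95% interval of the mean -0.52 to -0.11, adjusted p = 0.188). This probe was printed 10 times on each array, and its 8 usable spots had an SD of 0.018 and 0.023 on the log2 scale. Centring each array on its median in place of loess put the median of all tested probes at 0.017 on the first array and 0.38 on the second. Cdh1 was then at -0.21 and 0.32, which is -0.22 and -0.058 from those medians.

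Cdh3 had a brightness of 443 in wild type with TAM and 285 in ER-Sox9flox/flox with TAM, and 333 with vehicle and 243 with TAM. The wild type and vehicle RNAs were both brighter than either Sox9-deleted RNA. Cdh3 was read by 1 probe, printed once on each array. The log2 ratios of 0.63 and 0.46 gave a mean of 0.54 ± 0.13, the highest of the 10 genes and 1.46-fold higher in Sox9-expressing RNA (limma 95% interval 0.30 to 0.79, adjusted p = 0.138). With median centring Cdh3 was 0.65 and 0.48 above the median of all tested probes. Cdh3 and Cdh1 are neighbors on chromosome 8, and their probes lie 114258 bases apart on the same strand. The log2 ratio of Cdh3 minus that of Cdh1 was 0.95 and 0.78 on the arrays, a mean difference of 0.86 ± 0.12 that was not tested.

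Cdh2 was close to the background in all RNAs. Its brightest probe read 112 in wild type with TAM and 111 in ER-Sox9flox/flox with TAM, and 139 with vehicle and 111 with TAM. Only the vehicle RNA stood apart from the others. The given position of this probe covers only 30 bases of the genome, although the probe has 60. The mean log2 ratio was 0.17 ± 0.22, from 0.013 and 0.33 (limma, adjusted p = 0.473). That mean depends on how the background is treated, with 0.31 for an offset of 10 and 0.57 from the scanner software's processed signals. The other 2 Cdh2 probes were not well above background in any of the 4 RNAs, and no ratio is given for them.

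Cdh11, the OB-cadherin, went different ways on the arrays. Its brightest probe, the one that reads the calcium-binding signature shown above, had a brightness of 1933 in wild type with TAM and 2065 in ER-Sox9flox/flox with TAM, and 2641 with vehicle and 2055 with TAM. Both Sox9-deleted RNAs lay close together, with the wild type RNA slightly below them and the vehicle RNA above. The log2 ratios were -0.095 and 0.36, with a mean of 0.13 ± 0.32 (limma, adjusted p = 0.649). The second probe, which lies downstream, showed the same order more strongly, with 408 and 613 in the genotype comparison and 772 and 587 in the treatment comparison. Its log2 ratios were -0.59 and 0.40, a mean of -0.096 ± 0.69 (limma, adjusted p = 0.870). The third Cdh11 probe was well above background only in the Sox9-deleted RNA of the first array and the vehicle RNA of the second, so it was not tested.

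**Figure D2:**
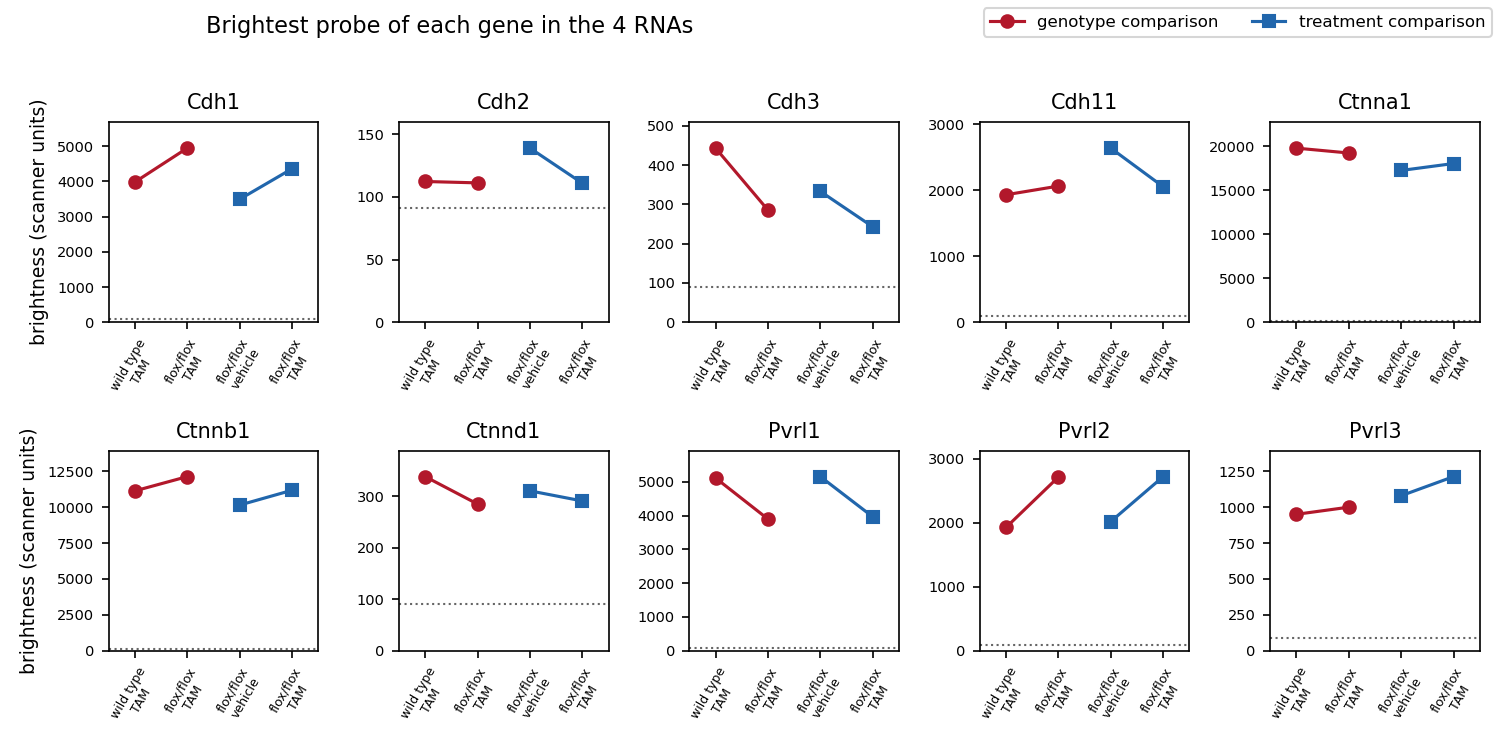
Brightness (y axes, scanner units, linear and starting at 0, a separate scale for each gene) of the brightest probe of each gene in the 4 RNAs (x axes), with 1 value for each RNA. Circles are the genotype comparison, squares the treatment comparison, and the dotted line is the median brightness of probes not above background. Cdh1 and Pvrl2 are brighter in the Sox9-deleted RNA on both arrays, Cdh3 and Pvrl1 are dimmer there, and Cdh2 stays near the dotted line.

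Most markers of mesenchymal and muscle cells also had opposite signs on the arrays. All 11 mesenchymal markers were tested, and 10 of them had opposite signs (1 was lower on both), beside 32.4% of all tested genes. On the first array 1 of the 11 was above 0, and on the second 9 were. Their median log2 ratio was -0.72 on the first array and 0.50 on the second. Their summed brightness was 40700 in wild type with TAM and 63000 in ER-Sox9flox/flox with TAM, against 88100 with vehicle and 56600 with TAM. The highest mean in the list was that of Fn1 (fibronectin, 0.21), from 0.44 and -0.0087, the reverse of that order. The lowest was that of Dcn (decorin, -0.45), which was lower on both arrays at -0.77 and -0.14. Of the 5 smooth muscle markers 4 were opposite. Cnn1 (calponin) had the highest mean (0.91) and was higher on both arrays, at 0.29 and 1.54. The lowest mean was that of Tagln (transgelin, -0.24). The 5 had a summed brightness of 13700 and 20000 on the first array and 32600 and 22800 on the second. The 3 tested skeletal muscle markers were all opposite, from Acta1 (skeletal muscle actin, 0.29) to Myog (myogenin, 0.069), with sums of 641 and 1390, then 3360 and 1040. Cdh11 followed the order of most of these markers on both tested probes. The part of mesenchymal or muscle cells in its values was not tested. In such bulk RNA, fewer cells of a type and less RNA per cell cannot be told apart.

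Epithelial markers were bright in all RNAs, with a summed brightness of 544000 and 318000 on the first array and 477000 and 357000 on the second. Of these 8 markers 6 had positive ratios on both arrays, beside 33.8% of all tested genes. The highest was the basal keratin Krt5 (mean 2.02) and the lowest the luminal keratin Krt18 (-0.65). The sums mix markers that went different ways. Krt5 read 103258 and 23572, then 90349 and 23977, whereas Krt18 read 57323 and 69500, then 43507 and 87854. Krt8 was at 0.013 and -0.74, and Krt19 at 0.049 and 0.18. The basal markers Krt14 (1.96) and Trp63 (1.60) lay on the same side of 0 as Krt5 and Cdh3. Epcam, a general epithelial adhesion molecule, was 0.46 and 0.37, on the other side of 0 from Cdh1. The part of basal and luminal cell numbers in the Cdh3 and Cdh1 values was not tested. The pan-leukocyte marker Ptprc, the myeloid Itgam, the T cell Cd3e and the endothelial Pecam1 were not well above background in any RNA. The single tested immune marker was the macrophage gene Cd68 (-0.73), with a brightness of 318 to 545. Endothelial means ran from -0.14 (Cdh5) to -0.0052 (Kdr) and neural means from -0.0042 (Elavl4) to 0.22 (Tubb3).

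**Figure D3:**
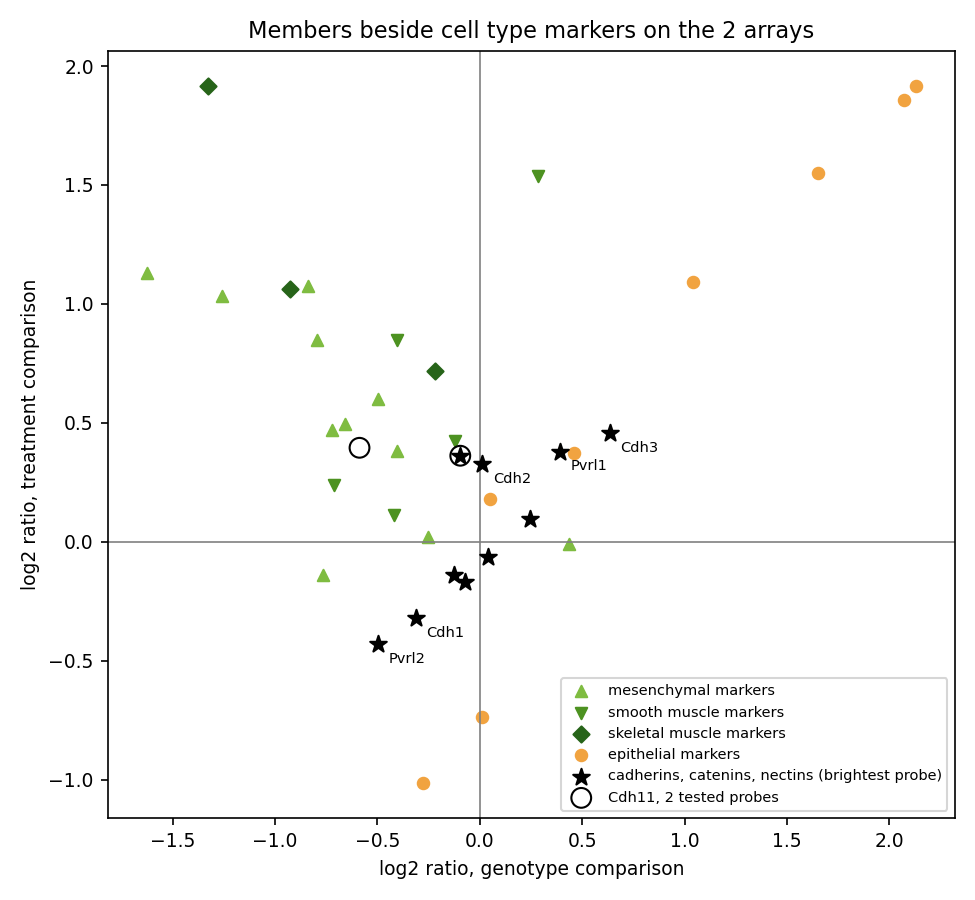
Log2 ratio on the genotype array (x axis) and on the treatment array (y axis) for the 10 genes (stars, brightest probe) and for epithelial, mesenchymal, smooth muscle and skeletal muscle markers. Most mesenchymal and muscle markers lie upper left, where the tested Cdh11 probes (open rings) also lie, whereas Cdh3, Pvrl1, Pvrl2 and Cdh1 lie near the diagonal.

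Of the catenins, Ctnna1 (α-catenin) differed least. Its brightest probe read 19770 in wild type with TAM and 19217 in ER-Sox9flox/flox with TAM, and 17234 with vehicle and 18022 with TAM. The groups overlapped. The mean log2 ratio was -0.012 ± 0.075, with a limma 95% interval of -0.23 to 0.21 (adjusted p = 0.948). A dim second probe, with a brightness of 120 to 164, gave 0.24 and -0.059 (mean 0.093 ± 0.21, limma, adjusted p = 0.681).

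Ctnnb1 (β-catenin), which also carries Wnt signals to the nucleus, gave different signs from different probes. Its brightest probe read 11127 and 12121 in the genotype comparison and 10141 and 11172 in the treatment comparison. The log2 ratios were -0.12 and -0.14, a mean of -0.13 ± 0.012 (limma, adjusted p = 0.421), and on the arrays its 9 and 10 usable spots had an SD of 0.032 and 0.037. A second bright probe, a little downstream, read 9246 and 8621, then 8460 and 7839. It gave 0.10 and 0.11, a mean of 0.11 ± 0.0064 (limma, adjusted p = 0.503). Each of these probes repeated its own value closely between arrays, and they disagreed with each other in sign, so no direction is given for Ctnnb1. The third probe read 629 and 389, then 461 and 425, with a mean of 0.41 ± 0.41 (limma, adjusted p = 0.322).

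Ctnnd1 (p120-catenin) had small positive ratios on both arrays, by both of its probes. The first probe read 338 and 285 in the genotype comparison and 311 and 291 in the treatment comparison, and the RNAs with Sox9 were brighter than both without. The log2 ratios were 0.25 and 0.094 (mean 0.17 ± 0.11, limma, adjusted p = 0.377). The probe across the splice junction gave 0.25 and 0.090 (mean 0.17 ± 0.11, limma, adjusted p = 0.384), so the probes were alike in size and direction.

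The nectins did not move together. Pvrl1 (nectin-1), which is also known as an entry receptor of herpes simplex virus, read 5109 in wild type with TAM and 3894 in ER-Sox9flox/flox with TAM, and 5150 with vehicle and 3961 with TAM. The Sox9-expressing RNAs lay close to each other and above both Sox9-deleted RNAs. Pvrl1 was read by 1 probe, printed once on each array. The log2 ratios of 0.39 and 0.38 gave a mean of 0.39 ± 0.0091, or 1.31-fold higher in Sox9-expressing RNA (limma 95% interval 0.18 to 0.59, adjusted p = 0.160). With median centring Pvrl1 was 0.48 and 0.65 above the median of all tested probes.

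Pvrl2 (nectin-2) showed the opposite order. Its brightest probe read 1927 in wild type with TAM and 2716 in ER-Sox9flox/flox with TAM, and 2020 with vehicle and 2722 with TAM. Again the values of each class lay close together and the classes did not overlap. Nor did the classes overlap for the brightest probes of Cdh1, Cdh3, Ctnnd1 and Pvrl1. For Cdh2 (112 against 111, near background) and Ctnnb1 (11127 against 11172) they were separated only narrowly. The share among all tested genes was not counted, so the separation is not read as a result about these genes. The log2 ratios were -0.49 and -0.43, a mean of -0.46 ± 0.045, the lowest of the 10 genes and 1.38-fold higher in Sox9-deleted RNA (limma 95% interval -0.67 to -0.25, adjusted p = 0.138). A second Pvrl2 probe, 7337 bases away in the genome and dim (136 to 183), pointed the same way on both arrays, with -0.21 and -0.44 (mean -0.32 ± 0.16, limma, adjusted p = 0.229). With median centring the brighter probe was -0.44 and -0.21 from the median of all tested probes. The log2 ratio of Pvrl1 minus that of Pvrl2 was 0.89 and 0.81, a mean difference of 0.85 ± 0.054 that was not tested.

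Pvrl3 (nectin-3), a preferred partner of nectin-1 between cells, was read by 3 probes whose values were small and alike. The brightest read 951 and 1000 in the genotype comparison and 1080 and 1213 in the treatment comparison, so the RNA classes overlapped between the arrays. Its mean log2 ratio was -0.12 ± 0.067, that of the second probe -0.13 ± 0.021 and that of the immunoglobulin-signature probe shown above -0.11 ± 0.040. All were lower on both arrays, with adjusted p (limma) of 0.471, 0.428 and 0.504.

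The genes around the junction were read from lists by role. Of 75 partner genes, 59 were tested and 14 were not well above background in any RNA. In Sox9-expressing RNA 25 were higher on both arrays, 17 were lower on both and 17 were opposite. Among all tested genes 33.8% were higher on both, 33.8% lower on both and 32.4% opposite. The partner median was 0.062, beside 0.0031 over all genes. By limma 20 of the 59 had an unadjusted p under 0.05, beside 19.5% of all genes, and 0 an adjusted p under 0.05. One, Snai2, was at least 2-fold higher on both arrays, which 0.377% of all genes were.

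**Figure D4:**
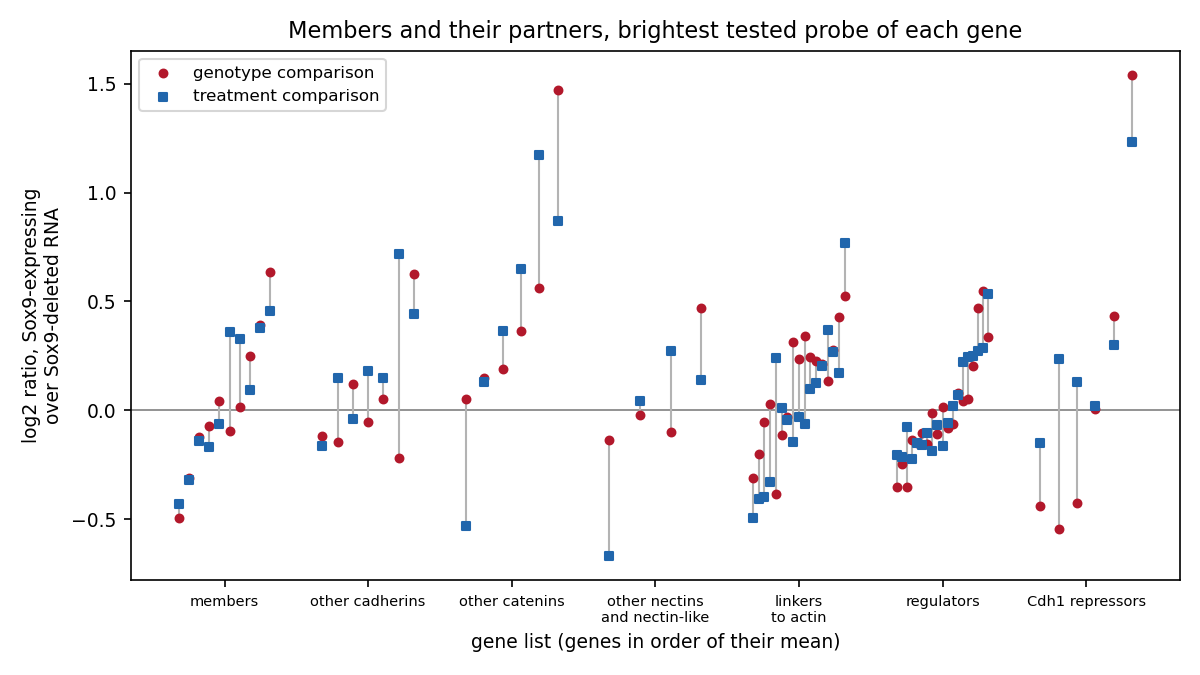
Log2 ratio of Sox9-expressing over Sox9-deleted RNA (y axis) for the 10 genes and their tested partners (brightest tested probe of each gene), grouped by role along the x axis and ordered by the mean within a group. Circles are the genotype comparison, squares the treatment comparison, and a line joins the values of a gene. Snai2 stands at 1.54 and 1.23 among the Cdh1 repressors, and 5 of the 6 genes listed as other catenins lie above 0 on both arrays.

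Among 17 other cadherins 7 were tested, 2 higher on both arrays, 1 lower and 4 opposite. The highest was Cdh13, a cadherin without a transmembrane part, at 0.63 and 0.44 (mean 0.53 ± 0.13, limma, adjusted p = 0.139). The lowest was the endothelial cadherin Cdh5, at -0.12 and -0.16. The cadherins Cdh4, Cdh7, Cdh8, Cdh9, Cdh17, Cdh18, Cdh20, Cdh22 and Cdh26, were not well above background in any RNA.

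In the list of other catenins 6 genes were tested, among them Ctnnbip1 (0.36 and 0.65), which binds β-catenin but is not a catenin. Of the 6, 5 had positive ratios on both arrays (33.8% of all tested genes did) and 1 was opposite. Their median was 0.39. Ctnnal1, an α-catenin-like protein, was the highest, with a brightest probe at 1.47 and 0.87 (mean 1.17 ± 0.43, limma, adjusted p = 0.130). Its other tested probes were at 0.59 and 0.51, and at 0.25 and 0.095, so they differed in size but not in direction. The lowest was Arvcf, a relative of p120-catenin, at 0.053 and -0.53. The neural α-catenin gene Ctnna2 and its heart and testis relative Ctnna3 were not well above background in any RNA.

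The other nectin and nectin-like genes numbered 6, of which 4 were tested, 1 higher on both arrays, 1 lower and 2 opposite. Cadm1 was the highest at 0.47 and 0.14, and Pvr, the poliovirus receptor relative, the lowest at -0.14 and -0.67. Cadm2 and Cadm3 were not well above background in any RNA.

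All 17 linkers between the junction and actin were tested, 7 higher on both arrays, 4 lower and 6 opposite. The adaptor Sorbs3 (vinexin) was the highest at 0.52 and 0.77 (mean 0.65 ± 0.17, limma, adjusted p = 0.132), and Shroom3, which drives apical constriction, was the lowest at -0.31 and -0.50 (mean -0.41 ± 0.13, limma, adjusted p = 0.179). Of the 19 tested regulators, among them kinases, phosphatases, small GTPases and proteases, 7 were higher on both arrays, 10 lower and 2 opposite. The highest was Adam10, the protease that sheds E-cadherin, at 0.34 and 0.53 (mean 0.43 ± 0.14, limma, adjusted p = 0.172). The lowest was the small GTPase Rap1a at -0.35 and -0.21 (mean -0.28 ± 0.10, limma, adjusted p = 0.233). The kinase gene Fyn was not well above background in any RNA.

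The known repressors of Cdh1 transcription were split. Of 6 tested, 3 were higher on both arrays, 1 was lower and 2 were opposite. Twist1, counted among the 3, was at only 0.0052 and 0.017, near background with a brightness of 102 to 103. Snai2 (Slug), a zinc finger repressor also found in basal epithelial cells, had a brightness of 3090 in wild type with TAM and 1062 in ER-Sox9flox/flox with TAM, and 2366 with vehicle and 1007 with TAM. Both Sox9-expressing RNAs were more than 2-fold brighter than their partners. Its log2 ratios of 1.54 and 1.23 gave a mean of 1.39 ± 0.22, or 2.62-fold (limma, adjusted p = 0.0883). Zeb2 was the lowest repressor at -0.44 and -0.15, while a second, dimmer Zeb2 probe was at -0.025 and -0.0033.

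The genes whose ratios were most like those of Cdh3, by distance between the pairs of log2 ratios on the 2 arrays, were Irx1, Cdh13, Zfp326, AJ290945 and Tuba1c. Their distances from Cdh3 ran from 0.014 to 0.039. Among the 15130 other tested genes 42 lay within 0.1.

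**Figure D5:**
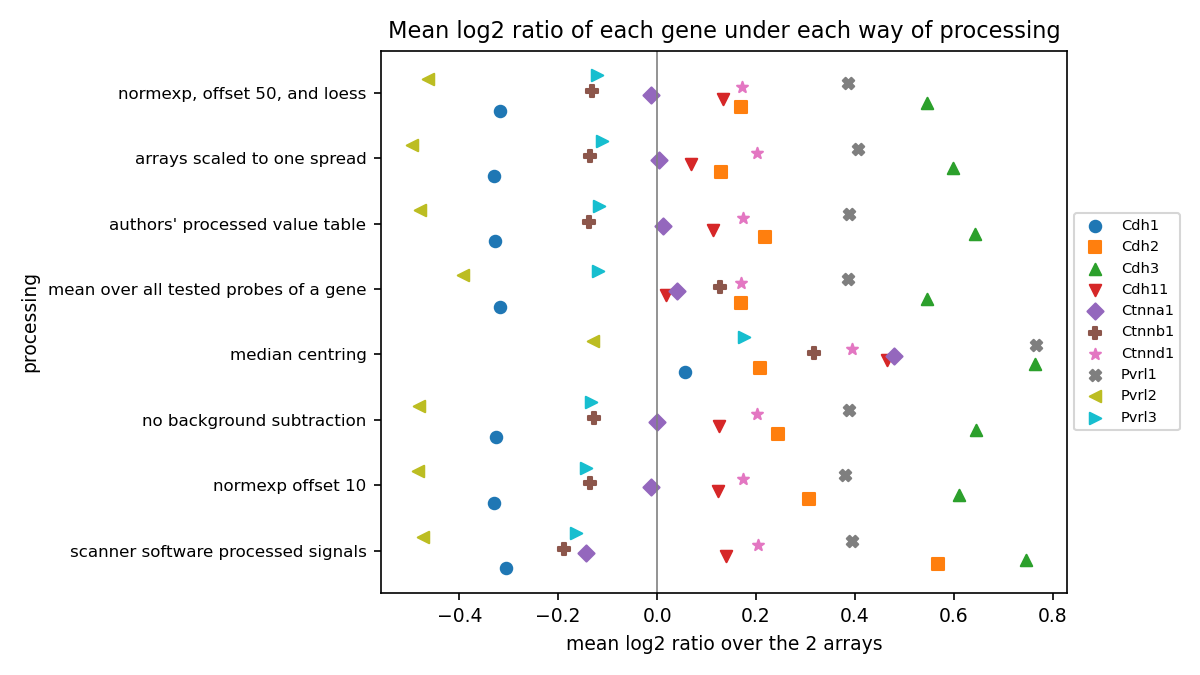
Mean log2 ratio over the 2 arrays (x axis) of each of the 10 genes (symbols) under each way of processing the spots (y axis). Cdh3 and Pvrl1 lie right of 0 and Pvrl2 left of 0 under each way shown, whereas Cdh1, Ctnna1, Ctnnb1 and Pvrl3 lie right of 0 with median centring, where the median of all tested probes was 0.18.

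With median centring the mean over both arrays had a median of 0.18 over all tested probes. Relative to it, Cdh3 and Pvrl1 were 0.58 higher, Pvrl2 was at -0.31 and Cdh1 at -0.13. Of the remaining genes Ctnna1 was at 0.29, Cdh11 at 0.28, Ctnnd1 at 0.21, Ctnnb1 at 0.13, Cdh2 at 0.024 and Pvrl3 at -0.0087. Against the median of each array, 5 of the 10 genes were then above it on both arrays, 2 (Cdh1 and Pvrl2) were below it on both and 3 were opposite.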

How the data were processed

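RNA was hybridized to 2 two-colour Agilent arrays of 1 slide. The authors deposited scanner files from Agilent Feature Extraction 10.5.1.1 with the mean intensity and local background intensity of each spot. Per the file headers, the software also gave processed intensities and their log10 ratio, and probe positions on mm9 (NCBI37). A series matrix of processed values was deposited as well, whose scale matched log2 ratios of Cy5 over Cy3 and whose steps are not given in the sources used here. RNAs were assigned from titles, treatments and dyes, and the source names, which call Cy5 SOX9 and Cy3 control, were not used.

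Background was corrected with normexp (offset 50) in limma 3.58.1 (R 4.3.3), and control spots were left out. Loess was run within each array, outlier spots (3 and 2 of the 39 in the genotype and treatment comparison) were dropped, and the remaining spots of each probe averaged. No spot of the 10 genes was saturated. Probes were tested where 1 dye was well above background on both arrays. The mean log2 ratio was tested against 0 with lmFit and eBayes, two-sided, with Benjamini-Hochberg adjustment over 22731 probes. With 1 residual degree of freedom, the spread rested mainly on that shared by all probes (a prior SD of 0.119 with 2.80 prior degrees of freedom), and precision is limited by the number of arrays. The titles number the 4 RNAs differently, but how many cultures gave each is not given, and the spread between the arrays also holds the difference between the comparisons. Brightness per RNA followed Aquantile normalization between arrays. The code was tested on simulated data.

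The members and lists were chosen with earlier results of these data known. Named were all members, the partner genes at least 2-fold different on both arrays, the highest and lowest gene of each list, markers at background in all RNAs and the 5 genes nearest Cdh3. Krt14, Trp63, Epcam, Krt8 and Krt19 were added after their values were seen. So were the remaining partner genes listed as not above background and the extra Ctnnal1 and Zeb2 probes. Alternatives changed the offset, background correction, normalization, scaling, filter, test, probe rule or arrays used. Figures were drawn with Python 3.11.15, numpy 2.4.6, pandas 2.3.3 and matplotlib 3.10.9.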

Additional observations from a re-analysis of the deposited data

Results flagged for a closer look

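For 2 of the 10 genes the ratio had one sign in the genotype comparison and the other in the treatment comparison, on each of their tested probes. For Cdh11 the genotype ratio minus the treatment ratio was -0.46 on the first probe and -0.98 on the second. For Ctnna1 the same difference was 0.11 on the first probe and 0.30 on the second. With 1 array in each comparison these differences were not tested. Among all tested genes 32.4% had opposite signs on the arrays.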

How the results depend on the processing

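None of the 10 genes reached an adjusted p under 0.05 (limma or the methods' t-test) under any alternative that gave a test. Over 10 alternatives that kept both arrays, the mean ran from 0.54 to 0.76 for Cdh3 (adjusted p 0.113 to 0.600), 0.38 to 0.77 for Pvrl1 (0.124 to 0.583), -0.50 to -0.13 for Pvrl2 (0.108 to 0.966) and -0.33 to 0.057 for Cdh1 (0.151 to 0.996). It ran from 0.13 to 0.57 for Cdh2 and from 0.019 to 0.46 for Cdh11. Median centring moved the median of all tested probes to 0.18 (0.38 on the treatment array), so signs against 0 partly count that common shift. Under it the means were positive for Cdh1 (0.057), Ctnna1 (0.48), Ctnnb1 (0.32) and Pvrl3 (0.18), and relative to that median Cdh1 (-0.13) and Pvrl3 (-0.0087) were still below it. Ctnna1, close to 0, also changed sign with the authors' table (0.011), with arrays scaled to one spread (0.0041) and with the mean over its probes (0.041), and Ctnnb1 with the mean over its probes (0.13). Snai2 passed the threshold with median centring (1.70, or 1.52 above that median, limma, adjusted p = 1.8e-07), a setting in which 491 of 522 called probes were higher.

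With median centring 0 members and 3 partner genes were below 0 on both arrays, against 17 partner genes in the report. Against the median of each array, 2 members and 14 partner genes were below on both, beside 4 and 18 with loess. With 1 array left out, 24 to 27 partners were lower and 2 were at least 2-fold different. At least 2-fold different were 2 partners with no background subtraction, 2 with median centring, 2 with the authors' table, 4 with the software's processed signals and 0 with scaled arrays. Over all tested probes, 2 had an adjusted p under 0.05, and 0 did with an offset of 10, no background subtraction, processed signals, scaled arrays or the methods' t-test (1930 at an unadjusted p under 0.05 by that test, 3990 by limma). The number was 522 with median centring, 68 with the authors' table and 21 with no filter. In all, 95 probes were at least 2-fold different, 148 with no background subtraction, 600 with processed signals, 147 with the authors' table and 298 to 382 with 1 array left out. The causes were not tested. Of 110 recomputed values of single genes, 38 had the same mean by construction (another filter or test, or a gene with 1 tested probe). Of the other 72, 63 kept their sign and side of the threshold, 8 changed sign and 1 passed the threshold. Dim probes, such as those of Cdh2, lie near the background and their ratios are understated by the offset. No paired analysis was possible because each array already holds both RNAs and the arrays form 1 group.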
